A study of Mus musculus with 4 samples.

Results

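Flt4, Nrp2 and Flt1 encode receptors of the vascular endothelial growth factor (VEGF) family. They were taken by name as 3 of the 9114 gene rows in 1 table of RNA sequencing from meningeal lymphatic endothelial cells. Vegfc, the gene of the delivered growth factor itself, was not analysed here. The cells came from male C57BL/6J mice of 20 to 24 months. All mice had received 5 µL of an AAV1 vector into the cisterna magna 4 weeks before, so the control mice carried a virus and a transgene too. The CMV promoter is a viral promoter that is active in many cell types. The vector was AAV1-CMV-mVEGF-C, which encodes mouse VEGF-C, in one group and AAV1-CMV-eGFP, which encodes a fluorescent protein, in the other. Sorting kept single cells without DAPI and CD45 that bore CD31 and PDPN (podoplanin). There were 2 libraries in each group, each from the pooled meninges of 10 mice. The libraries are named here by vector and number, as eGFP 1 and 2 and mVEGF-C 1 and 2.

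VEGF-C is a secreted ligand that drives the growth and upkeep of lymphatic vessels. It acts through the receptor tyrosine kinase VEGFR3, the product of Flt4, and also binds VEGFR2, the product of Kdr. Nrp2 encodes neuropilin-2, a co-receptor without a kinase that binds VEGF-C together with VEGFR3 and is also a receptor for class 3 semaphorins. Flt1 encodes VEGFR1, which binds VEGF-A, VEGF-B and placental growth factor but not VEGF-C, and a soluble form of it acts as a decoy. Lymphatic endothelium is known for strong Flt4 and Nrp2 expression, whereas Flt1 is best known from blood endothelium.

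In GENCODE vM21 on GRCm38 (mm10), Flt4 (ENSMUSG00000020357.3) lies on chromosome 11 from 49609263 to 49652739, on the plus strand. It has 1 annotated coding transcript, of 6255 bases and 1363 residues. Nrp2 (ENSMUSG00000025969.15) lies on chromosome 1 from 62703285 to 62818695, on the plus strand, with 6 coding transcripts that encode 901 to 931 residues. Flt1 (ENSMUSG00000029648.13) lies on chromosome 5 from 147561604 to 147726011, on the minus strand. Flt1 has 2 coding transcripts, which encode 1333 and 688 residues. The deposited values are per gene, so the shorter and the longer Flt1 products are counted together. No other annotated gene shares exon bases with any of the 3.

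Depth was even, at 25610683 to 28632461 reads per library on the genes of the table. Values are normalised counts, that is reads divided by a size factor per library, and comparisons between genes use normalised counts per kb of the longest coding transcript. By mean counts per kb, the lymphatic markers Ccl21a, Mmrn1, Lyve1 and Prox1 ranked 1, 6, 8 and 94 among the 7671 genes tested that have a coding transcript. The full list of 15 lymphatic markers reached down to rank 1220 (Nr2f2), with the sort marker gene Pdpn at 399. The 15 blood endothelial markers ranked from 34 (Aqp1) to 4696 (Spock2). Fibroblast transcripts were present as well, with the proteoglycan gene Dcn at rank 27. Only 3 of 14 myeloid and 3 of 9 lymphocyte markers were analysed, so the purity of the sort was not measured from these lists. The table holds genes whose replicates lay within limits. On log2(reads + 1), before the size factors, the widest gap was 2.83 in the eGFP pair and 4.24 in the mVEGF-C pair. Replicate spread is therefore understated, and p-values are too small by an amount that was not measured. In bulk libraries, fewer cells of a type and less RNA per cell cannot be told apart.

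Flt4 was the most abundant of the 3 receptors, Nrp2 the next and Flt1 the least in every library. The median over the 4 libraries was 10984 normalised counts per kb for Flt4, 6709 for Nrp2 and 1068 for Flt1. Kdr had a median of 3729 per kb and Nrp1, which encodes the other neuropilin, 1233 per kb. The order of neighbours was not equally clear. Flt4 ranged from 8090 to 11570 per kb and Nrp2 from 5079 to 9479 per kb, so the ranges overlapped. Flt1, from 623 to 4359 per kb, overlapped the ranges of both Kdr (2432 to 4893 per kb) and Nrp1 (886 to 1329 per kb).

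**Figure D1:**
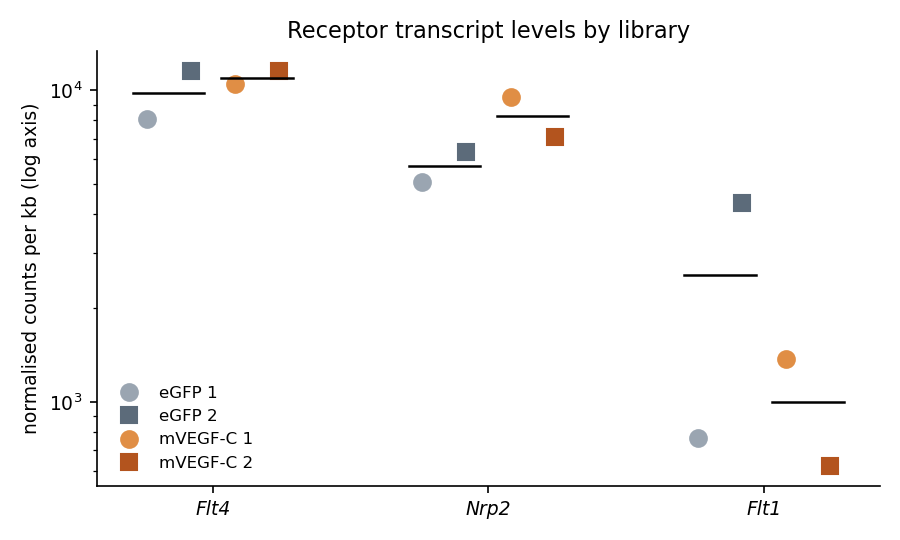
Normalised counts per kb of the longest coding transcript (log axis) for Flt4, Nrp2 and Flt1. Points are single libraries and black lines are arithmetic means of the 2 libraries of a group. Flt4 and Nrp2 stay within a narrow band, while Flt1 in eGFP 2 stands at 4359, far above the other 3 libraries.

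Flt4, the VEGF-C receptor, had 50600.5 normalised counts in eGFP 1 and 72373 in eGFP 2. It had 65465 in mVEGF-C 1 and 71949 in mVEGF-C 2. The 2 mVEGF-C libraries lay between the 2 eGFP libraries, and eGFP 1 was the lowest of the 4. The log2 fold change (mVEGF-C minus eGFP) was 0.18, with a 95% interval from -0.25 to 0.61. It did not pass the test over all genes (limma on the log2 scale with 1 count added, adjusted p = 0.863). On a linear scale the interval runs from 0.84-fold to 1.53-fold. The sign rested on eGFP 1: without it the log2 fold change was -0.077.

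Flt4 took 0.205% to 0.270% of the reads of a library and ranked between 20 and 31 per kb in the single libraries. Its replicates differed by 0.52 log2 units in the eGFP pair and by 0.14 in the mVEGF-C pair. Among the 906 genes with the most normalised counts, the median gap was 0.56 and 0.48, so Flt4 was close to the typical gap in the eGFP pair and below it in the mVEGF-C pair.

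Nrp2, the VEGF-C co-receptor, had 34149 normalised counts in eGFP 1 and 42448 in eGFP 2. It had 63728 in mVEGF-C 1 and 47757 in mVEGF-C 2. The groups did not overlap, with the lower mVEGF-C library above the higher eGFP library. The same held for 19.4% of all genes tested, and for 39.2% in either direction. The means were 38298 ± 5868 in eGFP and 55743 ± 11294 in mVEGF-C libraries (SD, n = 2 each). The log2 fold change of 0.54, with 0.02 to 1.05 as its 95% interval, did not pass the test over all genes (limma, adjusted p = 0.398). Nrp2 was 1 of the 11.8% of genes at an unadjusted p under 0.05.

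The size of the Nrp2 difference followed mVEGF-C 1. Without that library it was 0.33, and without mVEGF-C 2 it was 0.74. The summed level of the 15 lymphatic markers was also highest in mVEGF-C 1, at 620526. It was 467972 and 511910 in eGFP 1 and 2 and 488767 in mVEGF-C 2. As a share of all normalised counts, the sum was 2.17% in mVEGF-C 1 and 1.84% in mVEGF-C 2. In eGFP 1 and 2 the share was 1.89% and 1.87%. Single markers differed, and 3 of the 15 were highest in eGFP 2. Of these 15 genes, 7 had both mVEGF-C libraries above the eGFP libraries, as Nrp2 did, and 0 had both below, against 19.4% and 19.8% of all genes tested. By the ratio of group means, the 7 ran from 1.02-fold (Reln) to 2.62-fold (Ecscr). Ecscr is a pan-endothelial gene, not one particular to lymphatic vessels, and is counted among the 7. The next highest was Itga9, at 2.47-fold. The list was chosen with earlier results of these data known, so this count is not independent of them. With the libraries scaled to this sum, an alternative chosen after seeing the data, the log2 fold change of Nrp2 was 0.36 (interval from -0.18 to 0.91, adjusted p = 0.711 in limma) and that of Flt4 0.01. This scaling moved the median of all genes to -0.18, from -0.02 as deposited. The gene with the closest library profile to Nrp2 was Hipk1, followed by Pecam1, which encodes the sort marker CD31. Of the 8258 genes compared, Lyve1 was the 35th closest, while Prox1 was the 255th and Flt4 the 349th.

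Flt1, the VEGF-A receptor, had 5278 normalised counts in eGFP 1 and 30058 in eGFP 2. It had 9446 in mVEGF-C 1 and 4294 in mVEGF-C 2. Thus eGFP 2 stood 5.70-fold above eGFP 1, and both mVEGF-C libraries were below eGFP 2, on either side of eGFP 1. The group values were 17668 ± 17522 in eGFP and 6870 ± 3643 in mVEGF-C (mean ± SD, n = 2 each). The log2 fold change was -0.98, and its interval ran from -2.10 to 0.13 (limma, adjusted p = 0.535). Without eGFP 2 it turned to 0.27, and without eGFP 1 it was -2.24 (limma, adjusted p = 0.999 and 0.0797).

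Among the genes analysed, few with many reads had a gap between replicates as wide as that of Flt1. The eGFP pair differed by 2.51 log2 units, and 0.552% of those 906 genes had a wider gap in that pair. The mVEGF-C pair differed by 1.14 log2 units, and 14.8% of those genes had a wider gap. Genes beyond the replicate limits were absent beforehand. The widest gap left in the eGFP pair was 2.83 log2 units, on reads and not on normalised counts. Both shares may therefore be too low. Per kb, Flt1 ranked 134 in eGFP 2 but 1540 in eGFP 1, 922 in mVEGF-C 1 and 2072 in mVEGF-C 2. Flt1 had 28119 reads in eGFP 2 and 4622 in mVEGF-C 2, the lowest library.

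The markers of blood endothelium were examined beside Flt1. The summed level of the 15 blood endothelial markers analysed was 72587 in eGFP 1, 105925 in eGFP 2, 94308 in mVEGF-C 1 and 89541 in mVEGF-C 2. It was highest in eGFP 2, as Flt1 was, though by a smaller factor. The most abundant of the 15 were Kdr, itself a VEGF receptor gene, and Aqp1, and they weigh most in the sum. Aqp1 had 15822 in eGFP 1 and 31762 in eGFP 2, whereas Kdr was highest in mVEGF-C 1. Of the 15 markers, 5 were highest in eGFP 2, against 28.0% of all genes tested. The adhesion gene Selp, which encodes P-selectin, had 3122 and 6120 normalised counts in eGFP and 144 and 1969 in mVEGF-C libraries (log2 fold change -3.03, limma adjusted p = 0.0753). The proteoglycan gene Spock2 had 1691 and 1995 in eGFP and 615 and 58.5 in mVEGF-C libraries (log2 fold change -3.26, limma adjusted p = 0.121). Selp and Spock2 were both highest in eGFP 2, and their groups did not overlap. Of the 15 markers, 3 had both mVEGF-C libraries below the eGFP libraries, against 19.8% of all genes tested. In the other direction 1 did, against 19.4%: Plvap, with 6226 and 5250 in eGFP and 8604 and 16377 in mVEGF-C libraries (log2 fold change 1.05). Fold changes were above 0 for 9 markers and below for 6. Cd34 and Itm2a had log2 fold changes of 1.11 and 1.08 with overlapping groups. Limma, edgeR and DESeq2 each called 0 of the 15 markers, against 2.14%, 1.61% and 6.82% of all genes tested. In each tool 2 were at an unadjusted p under 0.05, against 11.8%, 11.8% and 16.7% of all genes. No marker of this list was at 0 in any library. The 11 fibroblast markers summed to 104413 and 64600 in eGFP and to 108995 and 66402 in mVEGF-C libraries. The 5 mural markers analysed, of 12 listed, summed to 28796 and 22693 in eGFP and to 18064 and 13248 in mVEGF-C libraries. These sums did not overlap, but the single genes differed. Of the 5, 2 (Abcc9 and Notch3) had both mVEGF-C libraries below the eGFP libraries, against 19.8% of all genes tested. The log2 fold change of Pdgfrb was above 0, at 0.94. The part of these marker lists in the values of the receptors was not tested.

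In all, 0 of the 3 receptors were called by limma at an adjusted p under 0.05, against 2.14% of the 9063 genes (0.828% higher and 1.31% lower in mVEGF-C). With an unadjusted p under 0.05, limma found 1 (Nrp2), edgeR 1 (Flt1) and DESeq2 0, against 11.8%, 11.8% and 16.7% of the genes. After adjustment edgeR and DESeq2 called 0 of the 3, against 1.61% and 6.82% of the genes. Over 17 alternative settings the adjusted p was never below 0.863 for Flt4, 0.208 for Nrp2 and 0.0797 for Flt1. The intervals do not show equal levels: they leave room for a 2.08-fold increase of Nrp2 and for a Flt1 level of 0.23-fold. They were wider in limma without trend: on the log2 scale they ran from -1.42 to 2.49 for Nrp2, from -3.35 to 1.38 for Flt1 and from -1.78 to 2.14 for Flt4. Without eGFP 1 the lower limit for Flt1 was -3.48.

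**Figure D2:**
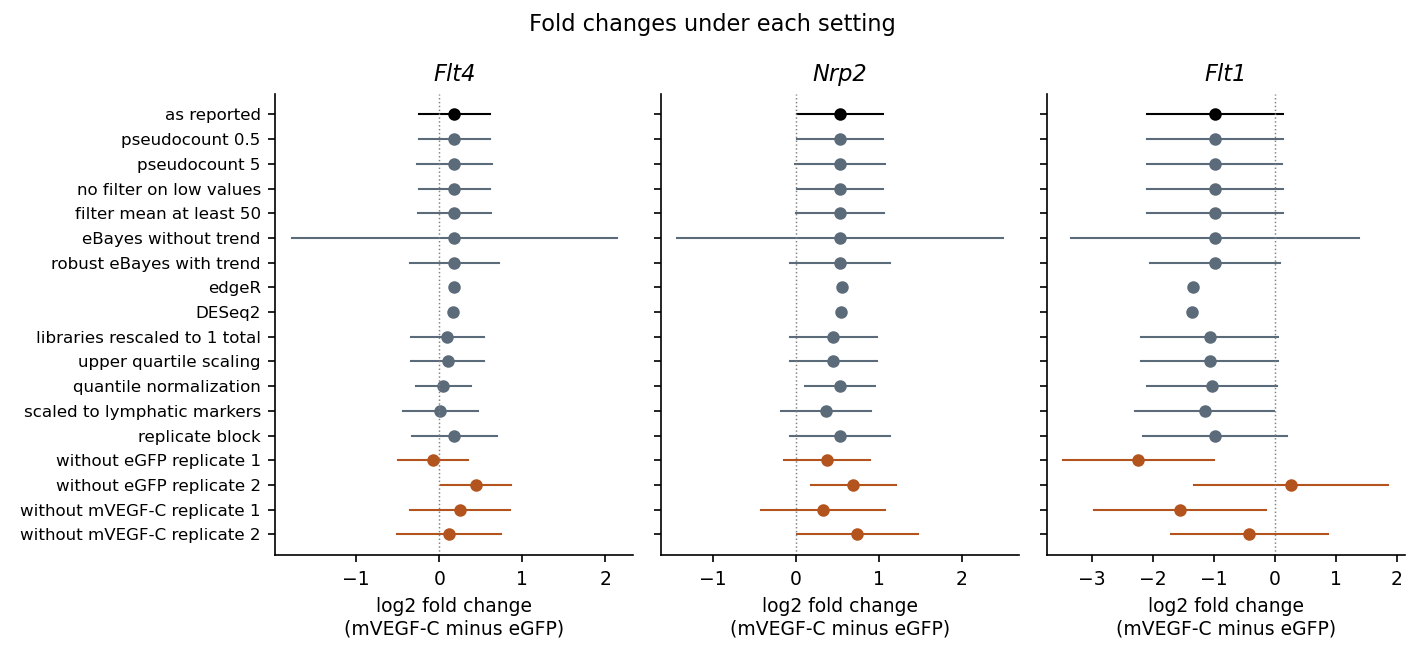
Log2 fold change (mVEGF-C minus eGFP) of Flt4, Nrp2 and Flt1 as reported (black), under other settings with all libraries (grey) and with 1 library left out (orange). Bars are 95% intervals where limma gave them. Nrp2 stays above 0 throughout, Flt4 is at -0.077 without eGFP 1, and Flt1 runs from -2.24 to 0.27 with 1 eGFP library left out.

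Ratios between the receptors were taken within each library, where they do not depend on library scaling. Per kb, Flt4 exceeded Nrp2 by 1.59-fold in eGFP 1, 1.83-fold in eGFP 2, 1.10-fold in mVEGF-C 1 and 1.62-fold in mVEGF-C 2. Both transcripts were thus close to equal in mVEGF-C 1, the library with the most Nrp2. The mean log2 ratio was 0.77 ± 0.14 in eGFP and 0.42 ± 0.39 in mVEGF-C (SD, n = 2 each), and the groups overlapped (exact two-sided permutation test, p = 0.667). With 2 against 2 libraries the smallest possible p is 0.333. The level of this ratio depends on the length used: with all exons merged, Flt4 exceeded Nrp2 by 1.48-fold to 2.45-fold.

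The ratios to Flt1 varied most. Flt4 exceeded Flt1 per kb by 10.6-fold in eGFP 1, 2.65-fold in eGFP 2, 7.64-fold in mVEGF-C 1 and 18.5-fold in mVEGF-C 2. The 2 mVEGF-C ratios lay on either side of that of eGFP 1, and the log2 difference between groups of 1.17 did not separate them (exact permutation test, p = 0.667). Without eGFP 2 it was 0.17.

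Nrp2 exceeded Flt1 per kb by 6.64-fold in eGFP 1, 1.45-fold in eGFP 2, 6.92-fold in mVEGF-C 1 and 11.4-fold in mVEGF-C 2. Here the groups did not overlap, though mVEGF-C 1 and eGFP 1 were nearly equal. The log2 difference was 1.52 (exact permutation test, p = 0.333, the smallest possible) and 0.42 without eGFP 2. Adjusted over the 3 ratios, every p was 0.667.

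**Figure D3:**
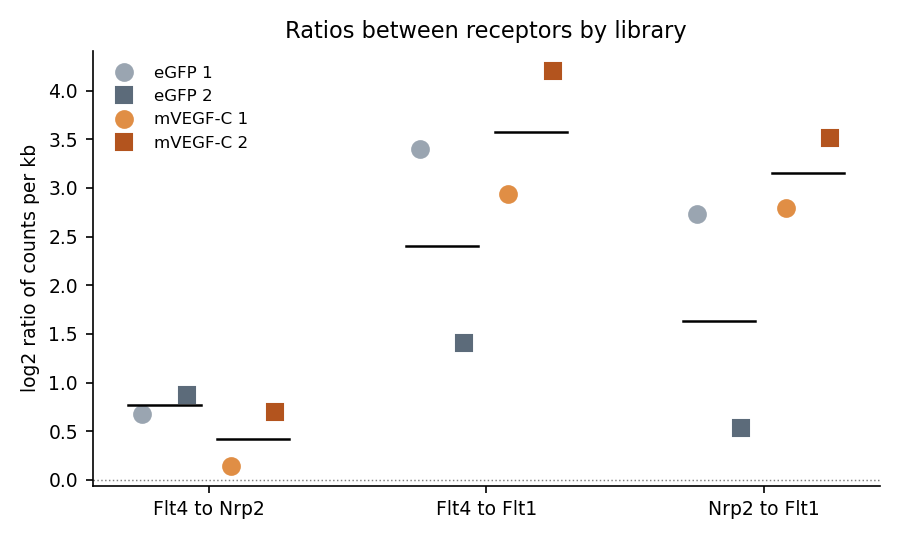
Log2 ratio of normalised counts per kb between pairs of receptors, by library, with black lines at the means of the 2 libraries of a group. Flt4 to Nrp2 lies between 0.14 and 0.87, whereas both ratios to Flt1 are lowest in eGFP 2, at 1.41 and 0.53.

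Flt4 made up most of the transcript of the 3 VEGF receptor kinases. Per kb, its share was 68.4% in eGFP 1, 56.7% in eGFP 2, 62.6% in mVEGF-C 1 and 79.0% in mVEGF-C 2. Flt1 made up 6.47%, 21.4%, 8.19% and 4.28% in that order, and Kdr the rest. The group means for Flt4 were 62.5% ± 8.26 in eGFP and 70.8% ± 11.6 in mVEGF-C (SD, n = 2 each). The groups overlapped (exact permutation test, p = 0.667). Of the 2 neuropilins, Nrp2 made up 79.3% and 87.7% in eGFP and 87.9% and 85.9% in mVEGF-C libraries.

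**Figure D4:**
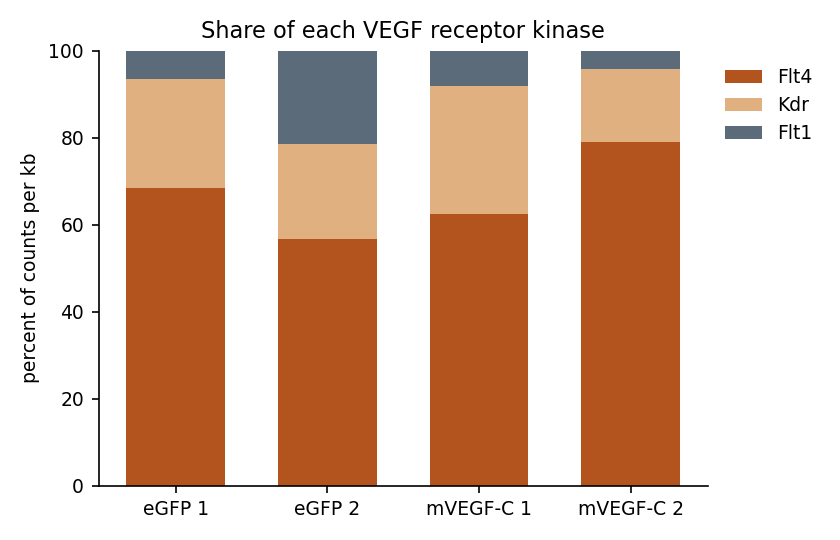
Share of Flt4, Kdr and Flt1 in the summed normalised counts per kb of the 3 VEGF receptor kinases, in percent, by library. Flt4 is the main component in each library, and Flt1 reaches 21.4% in eGFP 2.

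The wider VEGF pathway was described from a list of ligands, receptors, co-receptors and processing factors, of which 13 were analysed. None was called by limma, edgeR or DESeq2, against 2.14%, 1.61% and 6.82% of all genes. At an unadjusted p under 0.05 there were 1 in limma (Nrp2), 1 in edgeR and 0 in DESeq2 (11.8%, 11.8% and 16.7% of all genes). The median log2 fold change was -0.08, with 6 above 0 and 7 below, against -0.02 over all genes tested. Nrp2 was the 1 gene with both mVEGF-C libraries above the eGFP libraries, and Ctsd, which encodes the protease cathepsin D, the 1 gene with both below. Ctsd had 13553 and 22911 normalised counts in eGFP and 12338 and 9836 in mVEGF-C libraries (log2 fold change -0.68, limma adjusted p = 0.653). Groups that did not overlap in that direction were found for 19.8% of all genes.

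The other receptor kinase, Kdr, had 17637 and 26547 normalised counts in eGFP and 28988 and 14404 in mVEGF-C libraries. Its groups overlapped (log2 fold change -0.08, limma adjusted p = 0.976). As for Flt1, the higher library of each pair was eGFP 2 and mVEGF-C 1. Nrp1 had 4782 and 3188 in eGFP and 4681 and 4192 in mVEGF-C libraries, with a log2 fold change of 0.18 (limma, adjusted p = 0.972).

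The 4 ligands analysed ranked between 4188 and 7104 of the 7671 genes per kb. Vegfa, the main ligand of VEGFR2 and VEGFR1, had 612 and 1068 normalised counts in eGFP and 786 and 413 in mVEGF-C libraries. Pgf, which encodes the VEGFR1 ligand placental growth factor, had 122 and 443 in eGFP and 1227 and 420 in mVEGF-C libraries. Its log2 fold change was 1.62 ± 1.19 (SE) (limma, adjusted p = 0.682). Vegfb, another VEGFR1 ligand, had 199 and 293 in eGFP and 38.5 and 364 in mVEGF-C libraries. Vegfd, which encodes another ligand of VEGFR3, stood between 7.48 in mVEGF-C 1 and 74.3 in mVEGF-C 2. For these 4 genes the groups overlapped.

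Among genes of ligand processing, no other had groups apart. Ccbe1, whose product helps the cleavage that activates VEGF-C, had 544 and 367 normalised counts in eGFP and 156 and 840 in mVEGF-C libraries. Adamts2, a procollagen protease, had 1212 and 530 in eGFP and 822 and 1838 in mVEGF-C libraries. Pcsk5, a proprotein convertase, was at 59.1 in eGFP 1 and between 193 and 391 in the other 3 libraries. Single libraries of 1 group thus differed more than the group means for these genes.

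**Figure D5:**
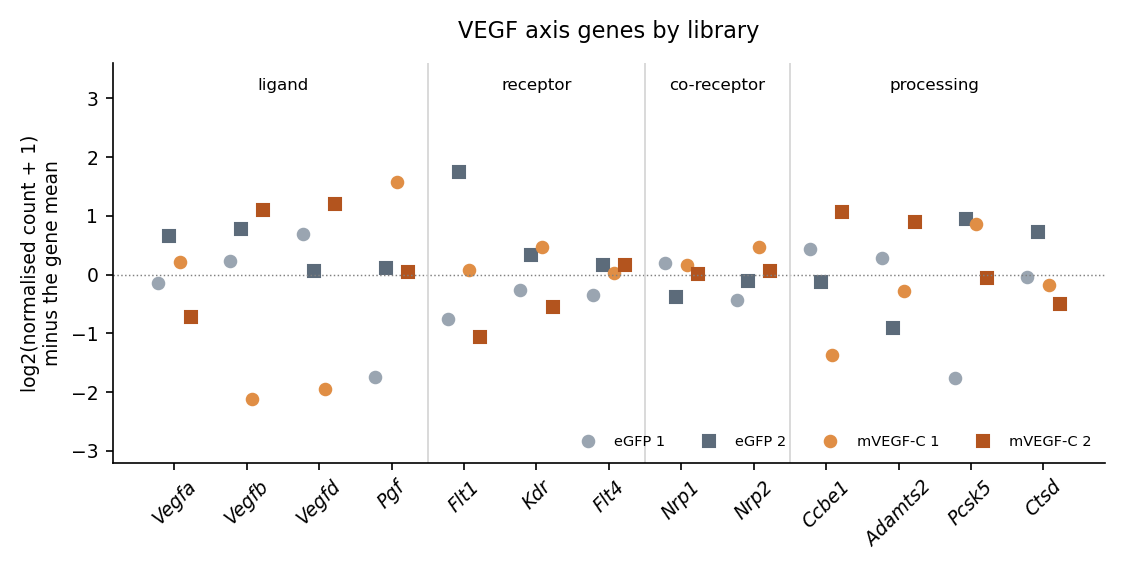
Log2(normalised count + 1) of the 13 VEGF pathway genes in each library, centred on the mean of the gene and ordered by role. Flt4, Nrp1 and Nrp2 show the narrowest spread, and Vegfb and Vegfd in mVEGF-C 1, Pgf and Pcsk5 in eGFP 1 and Flt1 in eGFP 2 lie far from 0.

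Of 29 genes whose products carry or limit receptor signals, limma called 0, edgeR 0 and DESeq2 1, against 2.14%, 1.61% and 6.82% of genes. The 1 called was the fibronectin receptor subunit gene Itga5. In limma 3 of the 29 were at an unadjusted p under 0.05, against 11.8% of all genes. Their median log2 fold change was -0.00055, with 14 above 0. Itga5 had 1311 and 1702 normalised counts in eGFP and 5900.1 and 9214 in mVEGF-C libraries (log2 fold change 2.30, limma adjusted p = 0.118). The tyrosine kinase gene Src had a log2 fold change of -2.69 at 4.65 to 183 normalised counts (limma, adjusted p = 0.383). Ptprj, which encodes a receptor phosphatase, stood at -1.61 (limma, adjusted p = 0.643). Efnb2, the gene of the ephrin-B2 ligand that takes part in VEGFR3 internalisation, stood at 1.47 (limma, adjusted p = 0.708). The Efnb2 groups overlapped, at 169 and 1042 in eGFP and 1615 and 843 in mVEGF-C libraries.

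Of 8 semaphorin and plexin genes, 1 was called higher by limma, against 0.828% of all genes. Sema3e, which encodes a semaphorin that binds plexin-D1, had 117 and 62.0 normalised counts in eGFP and 1514 and 1470 in mVEGF-C libraries. The log2 fold change of 4.11 ± 1.21 (SE) passed the test (limma, adjusted p = 0.0370). It was called under 10 of 17 alternatives, DESeq2 among them (adjusted p = 7.05e-05). It was not called by edgeR (adjusted p = 0.0755), without trend (0.0816), with the lymphatic marker scaling (0.0630) and when any 1 library was left out (limma, 0.0691 to 0.833). Sema3f, a ligand of neuropilin-2, had a log2 fold change of -1.20 and overlapping groups (limma, adjusted p = 0.794). Sema3a, a ligand of neuropilin-1, stood at 0.44 and Sema3d at -0.42.

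Of 19 transcription factors of lymphatic and endothelial cells, 0 were called by limma, edgeR or DESeq2. The shares over all genes were 2.14%, 1.61% and 6.82%. None of the 19 was at an unadjusted p under 0.05 in any tool, against 11.8%, 11.8% and 16.7% of all genes. The median log2 fold change of the 19 was 0.16, with 12 above 0. Notch1, a receptor whose cleaved part acts in the nucleus, stood at 0.70, Ets2 at -0.89 and Nr2f1 at -1.07. The Nr2f1 groups overlapped. Of 10 genes induced by or restraining growth factor signals, 0 were called by any of the 3 tools, against the same 2.14%, 1.61% and 6.82%. At an unadjusted p under 0.05 there were 1 in limma, 1 in edgeR and 2 in DESeq2. The shares of all genes were 11.8%, 11.8% and 16.7%. The median of the 10 was 0.19. The inhibitor genes Spred1 and Spred2 stood at -2.19 and -1.01, Spry1 at 1.80 and Fos at -1.16. The groups of Spred2 and Fos overlapped. Of the 10 genes, 4 had both mVEGF-C libraries higher and 1 had both lower, against 19.4% and 19.8% of all genes tested.

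Genes with the most similar profile over the 4 libraries were taken by the Euclidean distance of centred log2 values. For Flt4 they were Klf4 (distance 0.075), Smchd1 (0.082) and Serinc3 (0.089), against a median distance of 1.70 to the 8258 genes compared. For Nrp2 they were Hipk1 (0.089), Pecam1 (0.111) and Olfr1028 (0.116). For Flt1 they were Cnnm3 (0.250), Zfp874a (0.258) and Gpd1l (0.273), against a median of 2.71. Flt4 and Nrp2 lay 0.55 apart, and Flt1 lay 2.04 from Flt4 and 2.23 from Nrp2. Kdr was the 992nd closest gene to Flt1, at 1.63. A profile over 4 libraries holds few independent values, and no likeness was tested.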

How the data were processed

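Total RNA was isolated with the PicoPure kit and linearly amplified, per the labels' protocols. Per the submitters' processing notes, FastQC, Trimmomatic, Salmon and DESeq2 were used on mm10; their versions, the annotation and the strand setting are not given in the sources used. The deposited signal is normalised read counts: divided by the smallest non-zero value of its library, each value came out whole (100% within 0.001), which gave back the reads. P-values rest on the spread between libraries from separate pools of mice, technical spread included. In the main limma fit this spread was the trend over all genes analysed, not that of the single gene. Symbols were found for 1098 of 1146 rows that carry an Ensembl identifier. Lengths and coordinates are from GENCODE vM21.

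Groups were compared in R 4.3.3 with limma 3.58.1 (eBayes with trend) on log2(normalised count + 1) for 9063 genes with a mean of at least 10. P-values are two-sided, Benjamini-Hochberg adjusted over those genes and called under 0.05. The prior degrees of freedom were infinite, so a gene's own replicate spread did not enter its p-value. Alternatives used edgeR 4.0.16 and DESeq2 1.42.0 on recovered reads, which called 1.61% and 6.82% of genes, other pseudocounts, filters and scalings, and left-out libraries.

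The members and gene lists were chosen with earlier results of these data known. Named genes are the 3 receptors, the pathway genes analysed, in each other list those called or the 4 largest changes at a mean of at least 50, and the 3 nearest profiles. Of the marker lists, genes under this rule are named only where a result touches them. Dcn, the lymphatic markers Ccl21a, Mmrn1, Lyve1, Prox1, Pdpn, Nr2f2 and Reln and the blood endothelial markers Aqp1 and Plvap fall outside this rule. They were chosen after their values were seen.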

Additional observations from a re-analysis of the deposited data

How the results depend on the processing

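The fold change of Nrp2 kept its sign under all 17 alternatives, and none of the 3 receptors was called under any of them. With 1 library left out, Flt4 ran from -0.077 (without eGFP 1) to 0.44, Nrp2 from 0.33 to 0.74 and Flt1 from -2.24 to 0.27 (without eGFP 2). A lone library is there assumed to vary like the other group. The between-group ratio differences kept their sign, at -0.63 to -0.077 for Flt4 to Nrp2, 0.17 to 2.16 for Flt4 to Flt1 and 0.42 to 2.62 for Nrp2 to Flt1. With merged exon length, the mean log2 ratio of Flt4 to Nrp2 was 1.02, against 0.60, by construction of the length. The mean log2 level ratios with 1 library left out were 0.50 to 0.75, 2.58 to 3.51 and 2.02 to 3.01.

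Over all genes, 194 were called, 41 without trend, 618 by DESeq2 and 5 to 292 with 1 library left out, where fewer libraries enter; otherwise the cause was not tested. Without mVEGF-C 1, the median of the VEGF pathway genes was 0.33. The replicate numbers were not shown to pair the libraries: same-numbered deviations had a correlation of 0.00013. With the replicate block, 203 genes were called, and Nrp2 stood at an adjusted p of 0.522 (limma). The number of libraries, 2 in each group, limits every comparison.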
